A study of Mus musculus with 15 samples.

Results

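Inhib-10 is one of the 12 clusters into which the inhibitory neurons of the mouse prefrontal cortex (PFC) were divided by single-cell RNA sequencing, and its working name joins 2 genes, Vip and Reln. Its members are all cells that the table deposited with the counts assigns to this cluster. They were 94 of the 2153 cells in inhibitory clusters and of the 35360 retained cells, with 62 from adult mice (P60) and 32 from mice at P21. Each of the 94 cells also carried the class of inhibitory neuron.

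The study sequenced 15 libraries from the PFC of male C57BL/6N mice to follow the transcriptome through adolescence and through intravenous cocaine self-administration. The 12 P60 libraries (8 to 10 weeks in the sample labels, 2 pooled mice each) came from mice that self-administered cocaine or saline after training with food and catheter surgery, and both treatments were sampled at the end of the maintenance phase (cocaine in libraries 1 and 4, saline in 2 and 3), at 48 h of withdrawal (cocaine in 6 and 8, saline in 5 and 7) and at 15 days of withdrawal (cocaine in 9 and 10, saline in 11 and 12). The 3 P21 libraries (3 weeks) came from mice that no label assigns to surgery or self-administration, so that age and this handling cannot be told apart. The study's methods count fewer P21 mice than separate pools of 2 for 3 libraries would need, so that P21 libraries may share animals and p-values for age may measure technical spread only. The labels name the nucleus accumbens as tissue beside the PFC of the titles, and the values of Inhib-10 do not settle which it was, since the striatal genes measured chiefly mark projection neurons rather than interneurons (Drd1, listed as Drd1a, had no UMI, and Adora2a and Drd2 had 1 and 3 at P60). The study describes dissection of the PFC from brain slices, and 20140 of the 35360 retained cells were classed as excitatory neurons.

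Vip, the vasoactive intestinal peptide, marks cortical interneurons that mainly inhibit other interneurons, while Reln encodes reelin, an extracellular protein that guides migrating neurons before birth and is made by several kinds of interneuron in the adult cortex. Interneurons that arise in the caudal ganglionic eminence carry the serotonin receptor subunit Htr3a and the RNA editing family member Adarb2, in contrast to those of the medial eminence, which carry Lhx6, Sox6 and either Sst or Pvalb. A further kind of interneuron makes the peptide cholecystokinin (Cck) together with the cannabinoid receptor Cnr1, through which cannabinoids lower the release of GABA.

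A median of 7577.5 unique molecular identifiers (UMIs, each counting 1 captured mRNA molecule) was found in an Inhib-10 cell at P60 and of 5639 at P21, against 8064 and 6842.5 in the other inhibitory clusters. Over all its cells the cluster held 499262 UMIs at P60 and 194732 at P21. Levels are given as CPM, the UMIs of a gene summed over cells and scaled to a common total per sum. Genes of mitochondria and of ribosomal proteins do not enter. A count of 0 over the P60 cells allows a level of up to 6.76 CPM and over the P21 cells of up to 17.2 CPM, taking 3 UMIs as the floor. No more than 40 cell barcodes were shared between any pair of libraries.

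The cluster was small in every library. Library 9 held 14 of its cells, library 11 held 13, library 12 held 9, and libraries 1 and 10 held 6 each, while the other 7 P60 libraries held between 1 and 3. The P21 libraries 1, 2 and 3 held 4, 12 and 16. As a share of inhibitory cells, this was 5.21% at P60 (62 of 1191, exact 95% binomial interval 4.01% to 6.62%) and 3.33% at P21 (32 of 962, interval 2.29% to 4.66%). The intervals cover counting error only, and P21 cells received their cluster from the authors by similarity to the adult clusters, so the ages were not tested against each other. Among the P60 libraries the share was 6.58% ± 5.82 for cocaine and 5.92% ± 2.87 for saline (SD, n = 6 each). The difference of 0.661 percentage points was well within the spread of libraries (two-sided exact permutation within time points, p = 0.815 over 216 regroupings), and it turned to -1.59 points (exact permutation p = 0.435) without library 1, in which 6 of only 34 inhibitory cells were Inhib-10.

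**Figure D1:**
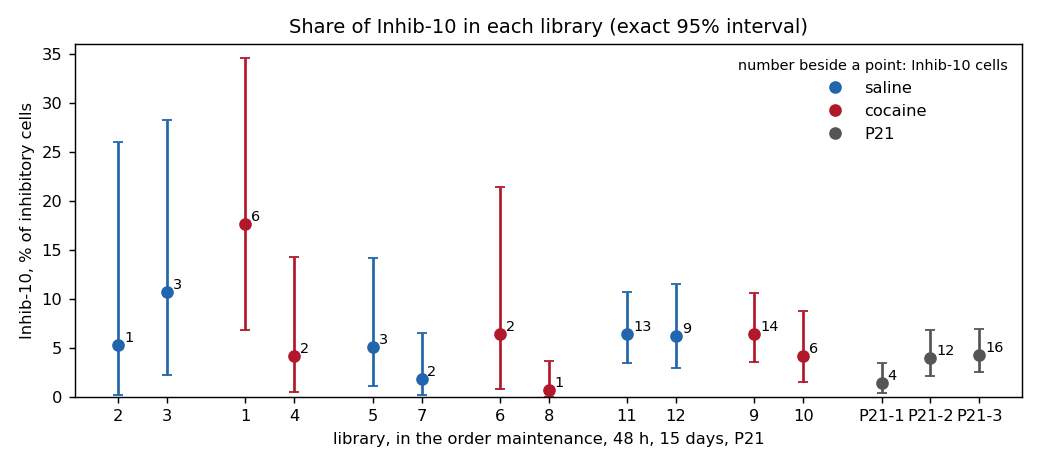
Share of Inhib-10 among the inhibitory cells of each library, in percent, with exact 95% binomial intervals and the number of Inhib-10 cells beside each point. The shares run from 0.658% in library 8 to 17.6% in library 1, where the interval is also wide (6.76% to 34.5%), and cocaine and saline libraries overlap at every time point.

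Vip and Reln were both present in Inhib-10, and neither was highest there. At P60 Vip (ENSMUSG00000019772, chromosome 10, 4698927 to 4707323 on NCBIM37) stood at 6095 CPM from 2706 UMIs, the third highest of the 12 clusters after Inhib-4 (19303 CPM) and Inhib-9 (17739 CPM). Reln (ENSMUSG00000042453, chromosome 5, 21390272 to 21850523) stood at 277 CPM from 123 UMIs, also the third highest, after Inhib-5 (526 CPM) and Inhib-2 (346 CPM). The order differed at P21, where Vip, at 2369 CPM, was also below Inhib-11 (10071 CPM), and Reln, at 482 CPM, was below Inhib-5 (791 CPM) and above Inhib-2 (325 CPM). Set against the sum of all other inhibitory clusters, with 1 CPM added to both sides, Vip was 2.23 times as high at P60 and 1.24 times at P21, and Reln 1.98 and 2.49 times. These and all other comparisons between clusters are descriptions without a test, since the clusters were formed from the expression of the same cells.

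The level of Vip differed widely between libraries. In the P60 libraries with at least 6 members it was 8922 CPM in library 1, 7183 CPM in library 9, 3530 CPM in library 10, 4780 CPM in library 11 and 5307 CPM in library 12. In the libraries with 1 to 3 members it lay anywhere between 0 and 17764 CPM. In P21 libraries 1, 2 and 3 it was 502, 4965 and 782 CPM, so that library 2 resembled the P60 libraries and the other two did not. Reln varied less, between 79.0 and 558 CPM in the P60 libraries and between 425 and 530 CPM at P21.

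The spread of Vip came from single cells. Of the 94 cells, 51 had no Vip UMI, 12 had between 1 and 9, and 31 had 10 or more, of which 10 had at least 100 and the highest had 311. The cells with 10 or more held 98.4% of all Vip UMIs in the cluster. Few cells lay near the border, with 9 of the 94 between 5 and 20 UMIs. The median depth of the cells without Vip and with 10 or more was 8121 and 7202 UMIs at P60 and 5759 and 6557 UMIs at P21. At P60, 32 of 62 cells had no Vip (51.6%) and 23 had 10 or more (37.1%), and at P21 these were 19 (59.4%) and 8 (25%) of 32.

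By contrast, a Vip UMI was found in 86.9% of Inhib-9 cells (exact interval 80.3% to 91.9%) and 91.9% of Inhib-4 cells (83.2% to 97.0%) at P60, where the cells were shallower (medians of 5303 and 5734 UMIs), and in 48.4% of Inhib-10 cells (35.5% to 61.4%). After thinning every cell to 2000 UMIs these shares were 84.8%, 90.5% and 46.8%. In endothelial cells, which do not make the peptide, the share was 1.23% at a median of 4516.5 UMIs and 0.477% after thinning. For Reln the share in Inhib-10 was 67.7% (54.7% to 79.1%) as counted and 32.3% after thinning, against 12.4% and 4.14% in Inhib-9, 84.8% and 48.5% in Inhib-5, and 0.365% and 0.168% in endothelial cells.

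Vip and Reln were often found in different cells. Reln UMIs numbered 11 at most in a cell, and 66 of the 94 cells had at least 1. Both genes had a UMI in 24 cells and neither in 9. Of the 35 cells with 3 or more Reln UMIs, 8 also had 10 or more of Vip. A Reln UMI was found in 42 of the 51 cells without Vip (82.4%, interval 69.1% to 91.6%) and in 16 of the 31 with 10 or more (51.6%, 33.1% to 69.8%). The summed level of Reln at P60 was 340.5 CPM in the cells without Vip (86 UMIs) and 157 CPM in those with 10 or more (24 UMIs). The gap was wider in the cocaine cells, at 394 and 94.1 CPM, where 80% and 23.1% of the cells had a Reln UMI, than in the saline cells, at 299.7 and 237 CPM, with 88.2% and 70% of the cells. At P21 it was about equal, 442 CPM from 46 UMIs and 482 CPM from 23 UMIs. The ranges of Vip were set after the values were seen and have no test.

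**Figure D2:**
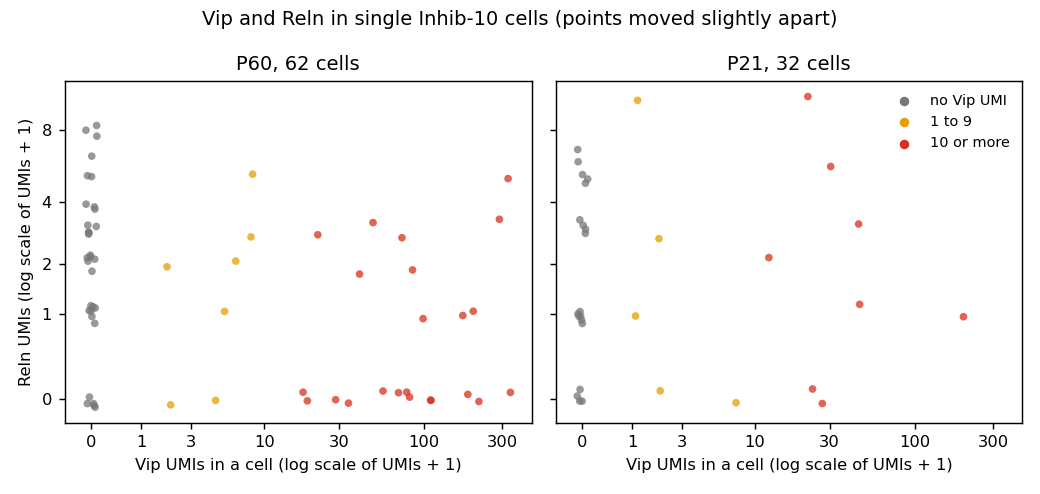
Vip UMIs (horizontal) and Reln UMIs (vertical) of every Inhib-10 cell at P60 (left, 62 cells) and P21 (right, 32 cells), both on a log scale of UMIs + 1. The cells at 0 Vip carry up to 8 Reln UMIs, and the cells with 10 or more Vip UMIs (red) reach up to 311.

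Other genes followed the same division, as named after their values were seen. Tac2, which encodes the peptide neurokinin B, was at 4908 CPM in the P60 cells with 10 or more Vip UMIs and 27.7 CPM in those without, and at 2202.5 and 365 CPM at P21. It had a UMI in 24 of 31 and 6 of 51 cells over both ages and was higher with Vip in 10 of the 11 libraries that held both ranges. Such counts of libraries describe the same cells from which the genes were chosen. Libraries 4, 5 and 6 held only 1 cell in each range. Kit, a receptor tyrosine kinase, stood at 275 CPM with and 91.1 CPM without Vip at P60, and Prox1, a homeobox factor of caudal eminence interneurons, at 275 and 131 CPM.

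In the other direction, the calcium buffer calbindin (Calb1) had 85 UMIs (337 CPM) in the 32 P60 cells without Vip and 1 UMI in the 23 cells with 10 or more, and 38 UMIs (365 CPM) against 3 at P21. It was found in 20 of 51 cells without Vip and 3 of 31 with 10 or more, and was higher without Vip in 10 of 11 libraries and higher with Vip in none. Calb1 also had a UMI in 36.5% of excitatory neurons (median 12209.5 UMIs) and 2.53% of endothelial cells (median 4373), and Tac2 in 1.55% and 0.303%. Cpne5, a member of the calcium-binding copine family, was at 463 and 45.9 CPM at P60 and at 384 and 42.0 CPM at P21, and the cell adhesion gene Cdh13 at 170 and 19.7 CPM at P60, with 15 UMIs and none at P21. Like Calb1, these were common in excitatory neurons, Cpne5 in 64.5% and Cdh13 in 43.0% of cells, against 3.46% and 6.43% of endothelial cells. The synaptotagmins Syt6 and Syt4 stood at 273 and 333 CPM without Vip and 45.9 and 111 CPM with it at P60. Npy, a peptide of many interneurons, was higher in the cells with Vip, but 3 cells held 88.0% of its 309 UMIs there.

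Cnr1 and Sncg, which encodes gamma-synuclein, were present in both ranges at similar levels. At P60 Cnr1 was at 2593 CPM without Vip and 3021 CPM with 10 or more, and Sncg at 934 and 734 CPM, and each was higher with Vip in 6 of the 11 libraries. Htr3a, at 1156 and 1887 CPM, was higher with Vip in 9 of the 11 libraries, and Cck, at 3171 and 7910 CPM, in 7. Over both ranges and the cells between, Cnr1 had a UMI in all 94 cells, Cck in 92, Htr3a in 90 and Sncg in 79. In endothelial cells the shares with a UMI were 3.15% for Cnr1, 18.05% for Cck, 0.0534% for Htr3a and 8.11% for Sncg (median 4373 UMIs), and in excitatory neurons Cck was in 87.0% and Cnr1 in 55.4%.

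**Figure D3:**
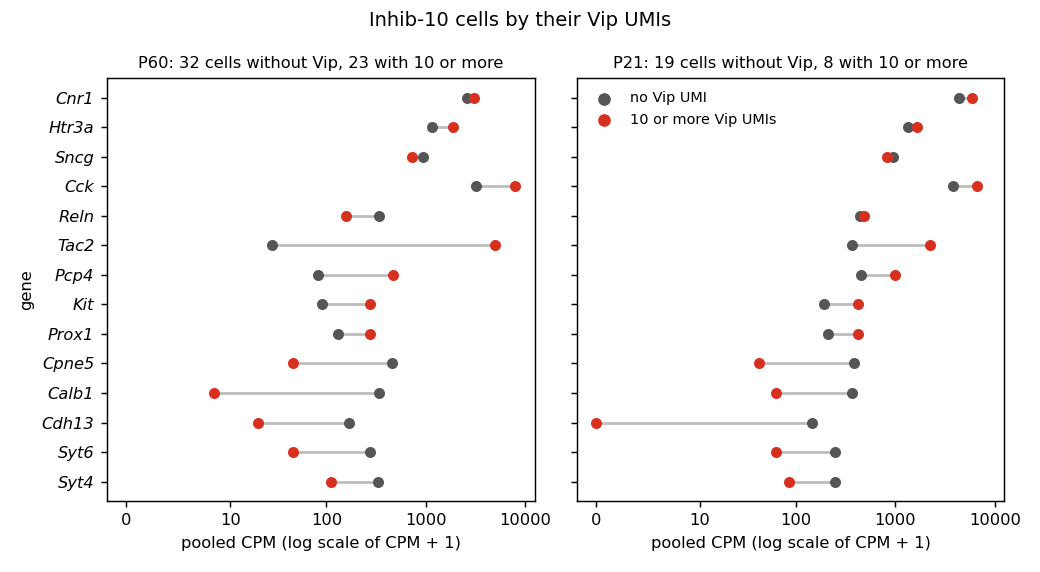
Level of 14 genes, in CPM summed over cells on a log scale of CPM + 1, in the Inhib-10 cells without a Vip UMI (grey) and with 10 or more (red), at P60 and P21. Cnr1 and Sncg lie close together at P60, Tac2 is higher with Vip, and Cpne5, Calb1 and Cdh13 are higher without it at both ages.

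The 10 genes with the highest ratio to the other inhibitory clusters at P60, among those of at least 50 CPM at both ages and higher in all 3 P21 libraries, were Npy2r, Htr3a, Crabp1, Tnfaip8l3, Cadps2, Sncg, Rgs12, Cpne2, Serpine2 and Syt6. At P60 each was higher in Inhib-10 than in any other cluster, some of them narrowly. Npy2r (ENSMUSG00000028004, chromosome 3), a receptor for neuropeptide Y, was at 218 CPM at P60 and 350 CPM at P21, against 8.80 and 10.0 CPM in the other clusters, a ratio of 22.4 at P60. It had a UMI in 50 of 62 P60 cells and 28 of 32 P21 cells. Htr3a (ENSMUSG00000032269, chromosome 9), the ion channel subunit that serotonin opens, was at 1408 and 1371 CPM, a ratio of 13.4 at P60. Rgs12, a regulator of G-protein signalling, was found in all 94 cells, in 28.9% of other inhibitory cells and in 62.5% of endothelial cells, and stood at 1349 CPM at P60 and 1434 CPM at P21 in Inhib-10, against 142 and 107 CPM in the other inhibitory clusters.

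Of the other leading genes, Sncg (chromosome 14) stood at 878 and 924 CPM against 77.3 and 62.5 CPM. Cadps2, which acts in the release of dense-core vesicles, stood at 775 and 1870 CPM against 67.9 and 95.8 CPM, and Serpine2, a secreted protease inhibitor, at 782 and 734 CPM against 98.9 and 94.1 CPM. At P60 Cadps2 was also at 731 CPM in Inhib-12 and 332 CPM in Inhib-11. The retinoic acid binding protein Crabp1 was less evenly spread, with its 67 P60 UMIs in 20 of 62 cells. Syt6 was found in 23 of 62 cells, mostly cells without Vip as given above. It stood at 176 CPM in Inhib-10 and 165 CPM in Inhib-12 at P60.

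The 5 genes with the lowest ratio were Sst, Nxph1, Rbp4, Cox6a2 and Penk. Sst, the somatostatin gene that marks medial eminence interneurons, had 5 UMIs at P60 (11.3 CPM) and 1 at P21, against 4512 and 12521 CPM in the other clusters. Penk, the precursor of enkephalins and a gene of other Vip cells, had no UMI at either age. By the floor over the group it was at least 20.2-fold lower than the other clusters together at P60 and at least 7.68-fold lower at P21. Rbp4 and Cox6a2 had no UMI at either age, and Nxph1 had a single UMI at P21. Some other clusters also lacked these genes at P60. Penk was at 0 CPM in Inhib-8, Inhib-11 and Inhib-12, Rbp4 in Inhib-12, and Sst in Inhib-5 and Inhib-12.

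**Figure D4:**
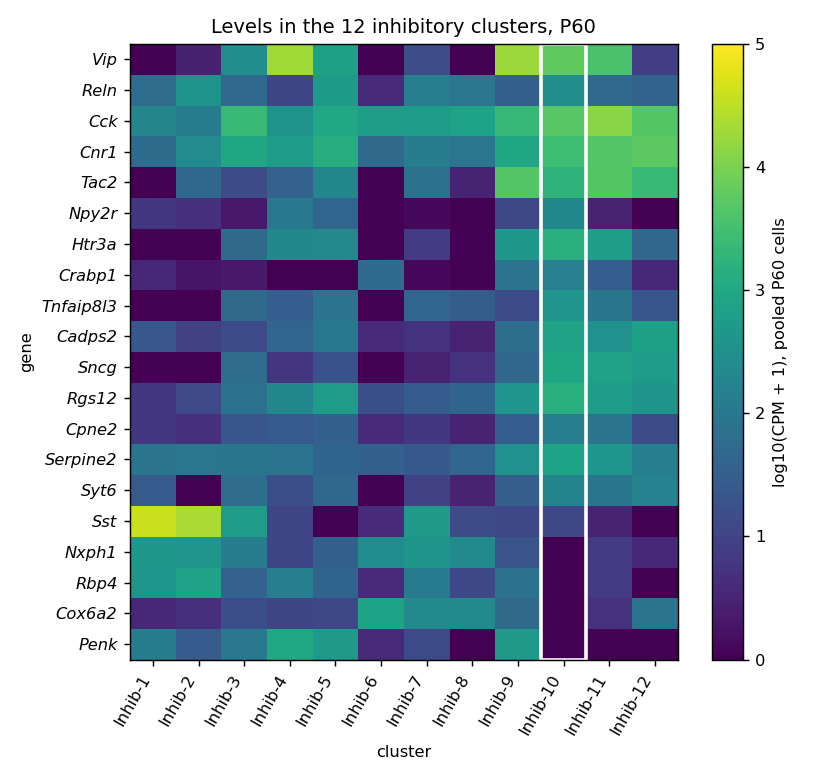
Level of Vip, Reln, Cck, Cnr1 and Tac2 and of the 10 leading and 5 lowest genes of Inhib-10 (rows) in the P60 cells of the 12 inhibitory clusters (columns), as log10(CPM + 1). Inhib-10 (white frame) is the brightest column from Npy2r to Syt6 and dark from Nxph1 to Penk, while Vip is brighter in Inhib-4 and Inhib-9 and Reln in Inhib-2 and Inhib-5.

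In the marker lists, genes were counted if they reached 20 CPM in Inhib-10 or in the other inhibitory clusters at either age. Of all 7584 such genes, 242 were more than 2-fold higher in Inhib-10 at both ages and 320 lower. Of the 10 caudal eminence genes, 8 were more than 2-fold above the other clusters at both ages, led by Htr3a, with Nr2f2 at 532 and 723 CPM, Cxcl14 at 667 and 815 CPM and Adarb2 at 295 and 281 CPM. Of 11 medial eminence genes, 8 were more than 2-fold lower, and Lhx6 and Sox6 had no UMI. All 5 Sncg interneuron genes that were counted (Sncg, Cck, Cnr1, Npy1r and Megf10) were more than 2-fold higher at both ages, and the other gene of that list, the vesicular glutamate transporter Slc17a8, had no UMI. Of 10 Vip interneuron genes, 2 were higher (Cck and Npy2r) and 3 lower. Calb2 (calretinin) stood at 87.8 CPM at P60, or 41.2 CPM without library 8, whose only cell held 21 of its 39 UMIs, and at 5.74 CPM at P21. Crh stood at 6.76 CPM at P60, and Chat had no UMI. In the other clusters of P21 libraries 2 and 3 and of the saline P60 libraries, Chat was also at most 2.63 CPM. Of 10 Lamp5 and neurogliaform genes, 6 were lower and none higher, and Lamp5 (listed as 6330527O06Rik) had 2 UMIs at P60. Against its working name, a Vip UMI was found in 43 of the 94 cells and a Reln UMI in 66. Htr3a was found in 90 and the chemokine gene Cxcl14 in 91, and each had a UMI in at most 1.20% of excitatory neurons and 0.837% of endothelial cells. Other inhibitory cells held them more often, Htr3a in 17.9% and Cxcl14 in 20.1%. At P60 Htr3a was found in 62.1% of Inhib-9, 48.6% of Inhib-4 and 42.4% of Inhib-5 cells.

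All 10 shared genes of GABAergic neurons passed 20 CPM. Gad1 was at 917 and 815 CPM and Gad2 at 716 and 1090 CPM at P60 and P21, and Slc32a1, the vesicular GABA transporter, at 464 and 534 CPM, the highest of the 12 clusters at P60. Markers of excitatory neurons summed to 176 CPM at P60 and 97.5 CPM at P21, below the 409 and 215 CPM of the other inhibitory clusters.

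Of 18 neuropeptide genes, 6 passed 20 CPM (Vip, Cck, Tac2, Npy, Pnoc and Cartpt) and 6 had no UMI. Cck was at 4955 CPM at P60 and 4417 CPM at P21, and at 2753 CPM in the saline P60 cells alone. Of its 2200 P60 UMIs, 1338 came from the cocaine libraries 9 and 10, without which it stood at 2773 CPM, and in each of these 3 settings of P60 cells Inhib-10 ranked second of the 12 clusters. Pnoc, the precursor of nociceptin, was at 698 and 476 CPM. Of 23 neuropeptide receptor genes, 4 passed (Npy2r, Npy1r, Adcyap1r1 and Npy5r), with Npy1r at 90.1 and 103 CPM, and neither Vip receptor had a UMI. Of 33 receptors for monoamines and acetylcholine, 7 passed 20 CPM and 15 had no UMI. Beside Htr3a these included Htr2c, a G-protein coupled serotonin receptor, at 106 and 120 CPM, the nicotinic subunit Chrna4 at 74.3 and 103 CPM, and the adrenergic receptor Adra1b at 76.6 and 74.6 CPM. Of the reelin pathway, the kinase Fyn was at 133 and 235 CPM, the highest of the 12 clusters at P60, the adaptor Dab1 at 140 and 132 CPM, and the receptors Vldlr and Lrp8 at 94.6 and 27.0 CPM at P60.

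Of 25 genes of potassium, sodium and calcium channels, 2 were more than 2-fold higher and 5 lower at both ages. Kcna1, a voltage-gated potassium channel, was at 47.3 and 34.4 CPM against 182 and 172 CPM elsewhere, and Scn3a, a sodium channel prominent in young neurons, at 106 and 155 CPM, the highest of the clusters at P60. Among glutamate receptors, Grin3a was at 2.25 and 5.74 CPM against 78.5 and 210 CPM, and among GABA receptors Gabra5, which had 1 UMI at P60 and none at P21, was at 52.8 and 22.1 CPM elsewhere.

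The change with age was asked of Inhib-10 by comparing P21 with the saline P60 libraries. The 12 cells of P21 library 2 and the 16 of library 3 were set against the 13 of library 11 and the 18 of the other 5 saline libraries summed, and P21 library 1, with 4 cells, was left out. By edgeR's quasi-likelihood test (a change over 1.5-fold with p below 0.05 after Benjamini-Hochberg adjustment), 56 of 1903 genes tested were higher at P60 (2.94%) and 70 lower (3.68%). DESeq2 called 14, all of them among the 126, and 418 genes had an unadjusted p below 0.05 in edgeR. The number depended on the libraries used, with 77 called without library 3 and 64 with P21 library 1 kept. Without library 12 the saline libraries other than 11 fell below 10 cells together, so that library 11 was the only P60 sum. Leaving out library 11, P21 library 2 or P21 library 3 also left 1 age with a single sum. Such fits cannot show the spread within that age.

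Of the 14 genes called by both tools, 5 rose and 9 fell. Gapdh, the glycolytic enzyme, was at 530 and 335 CPM in P21 libraries 2 and 3 and at 1771 and 1396 CPM in the P60 sums, a rise of 1.87 on the log2 scale (SE 0.226, edgeR adjusted p = 3.54e-08). Resp18, a protein of the secretory pathway in endocrine cells, was at 516 and 459 against 1375 and 1289 CPM (log2 change 1.44, SE 0.218, edgeR adjusted p = 1.17e-05). The noncoding RNA Snhg11 was at 2740 and 3042 against 7478 and 5162 CPM (log2 change 1.12, SE 0.180, edgeR adjusted p = 2.84e-05). The P21 and P60 sums of these 3 genes did not overlap, and each was called under all 17 alternatives, some of which left 1 age with a single sum. In the other inhibitory clusters Gapdh rose by 1.63, Resp18 by 1.87 and Snhg11 by 1.18 on the log2 scale. None of these 3 genes was called in the interaction test given below. Gapdh had a UMI in 60 of 62 P60 cells and 28 of 32 P21 cells. In P21 library 1, which was left out, it stood at 1042 CPM (27 UMIs), above the other P21 libraries and above the 909 CPM of saline library 5. The other 11 genes called by both tools were called in between 10 (Cnr1) and 16 of 17. The creatine kinase Ckb and the fatty acid enzyme Tecr also rose, by 0.956 and 1.11 on the log2 scale, and by 0.678 and 0.391 in the other inhibitory clusters.

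Among the genes that fell was Cnr1. It was at 4596 and 4334 CPM in the P21 libraries and 2822 and 2983 CPM in the P60 sums, so that it fell by 0.627 on the log2 scale (SE 0.170, edgeR adjusted p = 0.0154). It lost the call without library 3, although the log2 change stayed between -0.758 and -0.511 in all 17 alternatives. Leaving out library 11, library 12 or P21 library 2 left 1 age with a single sum, so that those fits give no spread for that age. In the other inhibitory clusters Cnr1 fell by 0.688 (edgeR adjusted p = 0.0411). Cadps2, a leading gene of the cluster, was at 1503 and 1850 against 1052 and 819 CPM and fell by 0.864 (SE 0.194, edgeR adjusted p = 0.00295). Dpysl2, a collapsin response mediator of axon growth, fell by 1.02, Pcp4l1 by 1.10, and Gnas, the stimulatory G-protein subunit, by 0.773. Atp5g1, Fth1, Oaz1 and Sepw1 completed the group and fell by between 0.661 and 0.805. Over the genes of this group, the log2 change in the other inhibitory clusters ran from -0.900 for Dpysl2 to 0.0422 for Sepw1.

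**Figure D5:**
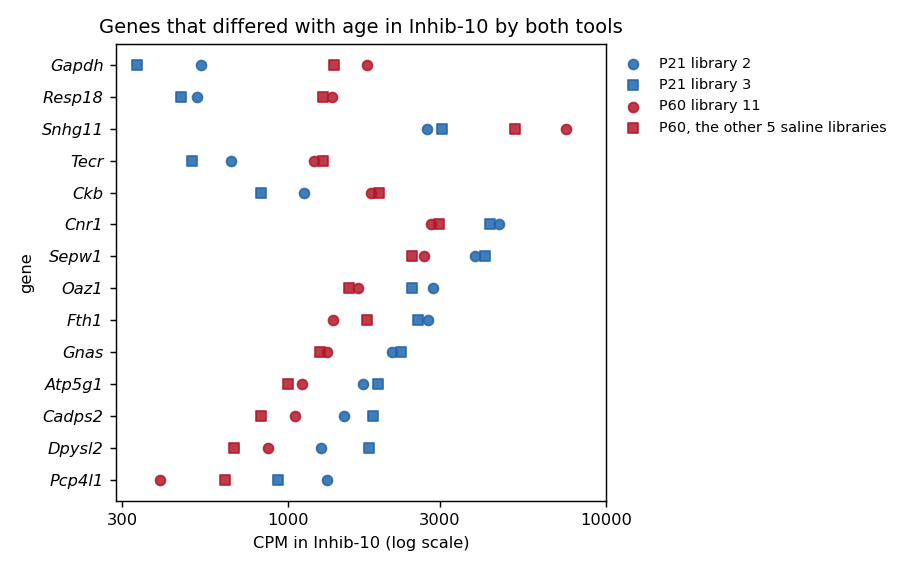
CPM in Inhib-10, on a log scale, of the 14 genes called for age by both edgeR and DESeq2, in the P21 libraries 2 and 3 (blue) and in the P60 saline sums (red, library 11 and the other 5 libraries together). For each gene the blue and red points do not overlap, with 5 genes higher and 9 lower at P60.

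The largest changes were taken from called genes whose P21 and P60 sums did not overlap. The 10 largest rises were Blcap, Gpr162, Gtf2b, Gstp1, Pqbp1, BC005764, Gapdh, Hspbp1, Mt1 and Eno2, between 1.84 and 3.01 on the log2 scale. Apart from Gapdh they rested on few P21 UMIs, with 1 and 1 in libraries 2 and 3 for Blcap and 0 and 3 for Gpr162. In the other inhibitory clusters Gpr162 rose by 3.01 and Blcap by 1.71, while Hspbp1 (0.237) and Gtf2b (0.414) were not called. The 10 largest falls were D0H4S114, Dnmt3a, Nav1, Yjefn3, Cited2, Ppp1r1a, 2310036O22Rik, Marcksl1, 1110002B05Rik and Dpysl5. Dnmt3a, a DNA methyltransferase, was at 177 and 310 CPM at P21 and 72.9 and 14.2 CPM at P60 (log2 change -2.67, SE 0.508, edgeR adjusted p = 0.000575). It was at 0 CPM in 7 of the 12 P60 libraries. The metallothionein Mt1 and the neuronal enolase Eno2 were among the rises, at 1.84 each. In P21 library 1, which was left out, Mt1 and Blcap, the largest rise, stood at 232 CPM each (6 UMIs), above both P60 sums (156 and 228 CPM for Mt1, 125 and 114 CPM for Blcap).

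By list, 3 of 14 tested genes of axon growth and immature neurons fell, and none rose. They were Marcksl1, Dpysl5 and Basp1, the last at 854 and 1018 CPM at P21 and 531 and 420 CPM at P60. In P21 library 1, which was left out of the test, Basp1 stood at 425 CPM (11 UMIs), within the P60 values. The median log2 change of that list was -0.399, against -0.0140 over all genes tested. Of 36 oxidative phosphorylation genes, Cox5a, Atp5b and Atp5g1 fell and none rose, and the median log2 change of the list was 0.134. Atp5g1 was at 1724 and 1912 CPM at P21 and 1104 and 997 CPM at P60, and Atp5b at 1945 and 1416 against 1010 and 1068 CPM. In P21 library 1 they stood near the P60 values, at 1081 CPM (28 UMIs) and 1119 CPM (29 UMIs). Cox5a was at 530 and 323 CPM at P21 and 125 and 178 CPM at P60, but with all 12 P60 libraries its log2 change was -0.383 (edgeR adjusted p = 0.843). Of 15 synaptic vesicle genes 1 rose (Syp, synaptophysin, log2 change 1.49) and none fell, with a list median of -0.338. Syp was at 118 and 99.3 CPM at P21 and 365 and 263 CPM at P60, but at 502 CPM (13 UMIs) in P21 library 1. Of 8 heat shock genes 1 rose (Hsp90aa1), with a median of 0.317. These counts stand beside 2.94% of all genes called higher and 3.68% called lower. Of 6 tested Vip interneuron genes Igf1, the insulin-like growth factor, fell by 1.36 (SE 0.275, edgeR adjusted p = 0.000825), from 545 and 633 CPM to 281 and 192 CPM. Cnr1 was the 1 gene called among 7 tested caudal eminence genes and among 3 tested Sncg interneuron genes. In the other 20 lists none of the tested genes passed, and 4 of these lists had no gene that could be tested.

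Neither label gene passed the test with both P21 libraries and the saline P60 sums. Vip was at 4965 and 782 CPM in the P21 libraries and 4780 and 4949 CPM in the P60 sums (log2 change 0.775, SE 1.11, edgeR adjusted p = 0.776). The P21 libraries differed so much that the change was -0.00605 without library 3, while without library 2 it was 2.64 (edgeR adjusted p = 3.89e-24). Each of these fits has a single P21 library, assumed to vary like the pair of P60 sums, so that its p says nothing of the spread between P21 libraries. Reln was at 530 and 459 CPM at P21 and 271 and 299 CPM at P60 (log2 change -0.787, SE 0.270, edgeR adjusted p = 0.0627), and with all 12 P60 libraries it fell by 0.847 (edgeR adjusted p = 0.0143). Oligodendrocyte genes summed to 58.9 and 1031 CPM in P21 libraries 2 and 3 and to 83.3 and 85.4 CPM in the P60 sums, and their part in these changes was not tested.

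Whether the age change of Inhib-10 differed from that of the other inhibitory clusters was tested as an interaction over the same libraries. Of 9273 genes, 4 had a more positive change in Inhib-10 (0.0431%) and 14 a more negative one (0.151%), with 669 at an unadjusted p below 0.05, and DESeq2 called 18, of which 13 were shared. Id2, an inhibitor of basic helix-loop-helix factors, was at 383 and 373 CPM at P21 and 573 and 548 CPM at P60 in Inhib-10, and at 181 and 159 against 918 and 876 CPM in the other clusters (difference of log2 changes -1.73, SE 0.267, edgeR adjusted p = 4.28e-06). Kit was at 368 and 199 against 156 and 235 CPM, and at 62.1 and 48.8 against 206 and 229 CPM elsewhere (difference -2.33, SE 0.358, edgeR adjusted p = 4.28e-06).

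For 12 of the 18 genes the other clusters had an edgeR adjusted p below 0.05 for age on their own, and those were not the same mixture at both ages. Inhib-7 made up 32.9% of all inhibitory cells at P60 and 7.90% at P21, and Inhib-2 9.40% and 35.4%. These shares and the levels of single clusters that follow cover all P60 and P21 libraries, whereas the test used the saline P60 libraries and P21 libraries 2 and 3. Id2 stood at 1290 and 1084 CPM within Inhib-7 and at 26.9 and 19.1 CPM within Inhib-2 at P60 and P21, and Kit at 360 and 479 CPM and at 11.5 and 14.5 CPM. When only Inhib-4 and Inhib-9 were used as the other clusters, none of 3158 genes was called (168 at an unadjusted p below 0.05), and the differences for Id2 and Kit were -0.667 and -0.900. In that comparison the difference was -1.58 for Ramp1 (from -1.61), 0.759 for Mdh1 (from 0.863) and 1.14 for Suclg1 (from 1.46), but -0.00542 for Pnoc (from -1.36), -0.294 for Tnfaip8l3 (from -1.57) and -0.50 for Nfib (from -1.99). After thinning every cell to 2000 UMIs none was called either (277 at an unadjusted p below 0.05), and with P21 library 1 kept, 1 was, which was not among the 18. Without P21 library 3 the fit held P21 library 2 alone at that age and cannot show the spread between P21 libraries. With the libraries as a replicate block, 33 genes were called, the 18 among them. Over 19 alternatives the difference ran from 1.14 to 1.65 for Suclg1 and from 0.678 to 1.14 for Mdh1. It ran from -2.61 to -0.900 for Kit, from -1.86 to -0.633 for Id2, from -1.67 to -0.00542 for Pnoc and from -1.16 to 0.0661 for 2900055J20Rik.

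In Inhib-10 itself 6 of the 18 genes had an edgeR adjusted p below 0.05 for age, namely Tnfaip8l3, Igf1, Suclg1, Impact, Mdh1 and Nap1l5, of which Nap1l5 (log2 change -0.584) did not exceed 1.5-fold. Trpc5, A830018L16Rik and Fgf13 had too few counts there to be tested. Tnfaip8l3, a leading gene of the cluster that belongs to a family of phospholipid carriers, was at 810 and 944 CPM at P21 and 490 and 335 CPM at P60 and fell by 1.13 (SE 0.234, edgeR adjusted p = 0.00112), while in the other clusters it was at 27.3 and 17.9 against 33.0 and 31.9 CPM. It was also lower at P60 in Inhib-11, at 210.2 CPM at P21 and 85.5 CPM at P60, in Inhib-12, at 142 and 20.4 CPM, and at few UMIs in Inhib-9, at 20.3 and 12.4 CPM, and Inhib-2, with 3 UMIs and none. It was higher at P60 in Inhib-3 (36.5 and 53.0 CPM), Inhib-4 (6.24 and 29.8), Inhib-5 (45.6 and 80.7), Inhib-7 (37.3 and 41.4) and Inhib-8 (23.1 and 28.5). Suclg1 and Mdh1 rose by 1.46 and 0.694 in Inhib-10 and had log2 changes of 0.101 and -0.0777 in the other clusters together. Single clusters differed from that sum, with Mdh1 at 1567 CPM at P21 and 2247 CPM at P60 in Inhib-11, at 1674 and 2347 in Inhib-12 and at 2258 and 2818 in Inhib-7, and Suclg1 at 274 and 473 CPM in Inhib-12. Igf1 and Gad2 had log2 changes of -0.0108 and 0.521 in the other clusters together. Singly, Igf1 was higher at P60 only in Inhib-3 and Inhib-5. It was at 614 CPM at P21 and 347 CPM at P60 in Inhib-9, and at 542 and 323 CPM in Inhib-12. Gad2 was higher at P60 only in Inhib-4, Inhib-9 and Inhib-11. It was at 1041 and 677 CPM in Inhib-12.

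Cocaine could not be followed over the time points in so few cells. Inhib-10 counted 8 cocaine and 4 saline cells at maintenance, 3 and 5 at 48 h, and 20 and 22 at 15 days, so that only the last had at least 10 in each arm. Vip stood at 9181 and 221 CPM at maintenance, 12554 and 8397 CPM at 48 h and 5908 and 4985 CPM at 15 days in cocaine and saline cells. Reln stood at 340 and 442, 491 and 116, and 195 and 299 CPM. Cells of one time point come from 2 libraries an arm, and these values have no test.

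At 15 days the 4 libraries were also compared by edgeR, a test added after the data were seen, in which libraries 10 and 12 entered with 6 and 9 Inhib-10 cells. Of 1564 genes, 3 were higher in cocaine (0.192%) and none lower, with 98 at an unadjusted p below 0.05, and DESeq2 called none (13 at an unadjusted p below 0.05). Cox5a, a subunit of cytochrome c oxidase, was at 751 and 560 CPM in the cocaine libraries 9 and 10 and 125 and 246 CPM in the saline libraries 11 and 12 (log2 change 1.96, SE 0.346, edgeR adjusted p = 0.000564). The clathrin light chain Clta was at 589 and 646 against 83.3 and 278 CPM, and Rab3a, a small GTPase of synaptic vesicles, at 2344 and 2863 against 1083 and 1573 CPM. Cck was at 8961 and 12097.5 against 1812 and 5488 CPM and did not pass (log2 change 1.55, edgeR adjusted p = 0.604), but it passed without a filter on low counts (1.56). Without library 12 the change was 2.55 (edgeR adjusted p = 3.76e-09), with library 11 as the single saline library, assumed to vary like the cocaine pair.

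Both cocaine libraries were also above both saline libraries in other cells, and the part of this in the calls was not tested. Cox5a was at 709 and 632 CPM in the excitatory neurons of libraries 9 and 10 and 97.0 and 309.5 CPM in those of libraries 11 and 12, and Cck in endothelial cells at 311 and 187 against 41.3 and 110.3 CPM. Library 11 was lowest for both genes in each of these classes. Without it, with library 12 as the single saline library, the log2 changes were 1.47 for Cox5a, 1.15 for Clta and 0.731 for Rab3a. Leaving out any 1 library leaves an arm without a spread of its own.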

How the data were processed

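Dissociated prefrontal cortex was profiled with 10x Genomics droplets in 15 libraries. Per the labels, reads were processed with Cell Ranger and Seurat 2.1.0 against mm9, and the authors deposited UMI counts per gene and cell together with the cluster of each retained cell, after their removal of low-quality cells and doublets. P60 cells were clustered by the authors, and P21 cells were assigned to those clusters by correlation. The deposited assignment was used as it stands, without further filtering or doublet calling.

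Counts were summed per library over cells of a cluster. Of 26145 genes, 25978 entered, without 13 mitochondrial genes and 154 for ribosomal proteins. Libraries of a group with fewer than 10 Inhib-10 cells were joined, then joined within an arm, and left out if still below 10, except in the added 15-day test, where the 4 libraries entered singly with 6 to 14 cells each. Sums were tested with edgeR 4.0.16 (TMM, robust quasi-likelihood) with Benjamini-Hochberg adjustment over all genes tested, calling an adjusted p below 0.05 with a change over 1.5-fold. DESeq2 1.42.0 served as an alternative. Shares were compared by an exact permutation test (scipy 1.17.1), with exact binomial 95% intervals that cover counting error only. Log2 changes are P60 relative to P21, or cocaine relative to saline. For detection, cells were thinned to 2000 UMIs, leaving out shallower cells. The age, age by cluster and 15-day cocaine tests were tried on simulated data, and the permutation test of shares was not. At a simulated log2 change of 1 they recovered 45%, 3.5% and 31.5% of the changed genes. At a log2 change of 2 they recovered 84%, 28% and 82%.

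Named were Vip, Reln and members of 27 gene lists with at least 20 CPM, the 10 highest and 5 lowest genes by ratio to the other inhibitory clusters, and the 10 largest called changes in each direction of each test among genes whose sums did not overlap between arms. Genes of the Vip ranges and those called by both tools were chosen after their values were seen. The cluster, its lists and its tests were chosen with earlier results of these data known. The planned cocaine test over time points could not be run, as a single time point had enough cells.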

Additional observations from a re-analysis of the deposited data

Results flagged for a closer look

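The age effect of 18 genes differed between Inhib-10 and the other inhibitory clusters summed in the edgeR interaction test. That sum held a different mixture of clusters at P21 and P60. Taken singly, most of the other clusters also had lower Igf1 and Gad2 at P60. Values are the log2 change from P21 to P60 in Inhib-10 minus that in the other clusters. A more negative change in Inhib-10 was found for the ion channel gene Trpc5 (-3.52), A830018L16Rik (-3.02), the junctional adhesion gene Jam2 (-2.84), Fgf13 (-2.78), Kit (-2.33), Arpp21 (-2.15), the transcription factor Nfib (-1.99), Id2 (-1.73), Ramp1 (-1.61), Tnfaip8l3 (-1.57), the nociceptin precursor Pnoc (-1.36), Igf1 (-1.27), 2900055J20Rik (-1.05) and the GABA-synthesising enzyme Gad2 (-0.87). A more positive change was found for Nap1l5 (0.79), Mdh1 (0.86), Impact (1.12) and Suclg1 (1.46). None of them was called when Inhib-4 and Inhib-9 alone were the other clusters, where Trpc5 was not tested. There the differences were -1.58 for Ramp1, -2.10 for A830018L16Rik, 0.759 for Mdh1 and 1.14 for Suclg1, but -0.00542 for Pnoc, -0.294 for Tnfaip8l3, 0.202 for Nap1l5, -0.50 for Nfib and 0.0661 for 2900055J20Rik. Trpc5, A830018L16Rik and Fgf13 were not tested for age in Inhib-10 alone and rested on few UMIs there. In P21 libraries 2 and 3 these were 5 and 6, 7 and 8, and 10 and 6. In library 11 and the other saline libraries summed they were 0 and 3, 1 and 6, and 1 and 3.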

How the results depend on the processing

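The 126 age calls in Inhib-10 became 14 with DESeq2, 61 without a filter on low counts, 20 with cells thinned to 2000 UMIs (513 genes tested) and 64 with P21 library 1 kept, a setting chosen after seeing the data. Leaving out 1 library gave between 34 and 135. The 18 age by cluster calls became 11 with sums of at least 5 cells, 0 with thinned cells, 1 with P21 library 1 kept and 0 against Inhib-4 and Inhib-9, and leaving out 1 library gave between 4 and 21. With the sum of libraries as a replicate block there were 33, which include the 18. For the other comparisons no paired analysis was possible because age and treatment groups share only a number given in accession order. The 3 calls for cocaine at 15 days became 0 with DESeq2 and 6 with DESeq2 size factors, and leaving out 1 library left an arm with a single library. The difference in share was -0.0021 percentage points with all neurons as denominator, and leaving out 1 library gave between -1.59 and 2.91, with -0.248 without library 2 and -0.305 without library 6. The log2 change of Cck with age was -0.713 (edgeR adjusted p = 0.449), ran from -1.23 to -0.284 over single libraries left out and turned to 0.27 with all 12 P60 libraries, and that of Vip ran from -0.00605 without P21 library 3 to 2.64 without P21 library 2. The age by cluster difference of 2900055J20Rik was 0.0661 against Inhib-4 and Inhib-9, and the change of Vip at 15 days ran from -0.541 without library 9 to 0.547 without library 10. The cause of these shifts was not tested. P21 libraries 2 and 3 summed as 1, and the alternatives of cocaine over time points, were not run, since an arm would hold a single sum or too few cells. With 94 cells, low genes rest on few UMIs.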
